A study of Homo sapiens with 20 samples.

Results

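AP-1 is a dimeric transcription factor made of FOS and JUN family proteins, and its 7 classical subunit genes, FOS, FOSB, FOSL1, FOSL2, JUN, JUNB and JUND, were followed here in cultured human liver cells given little or much leucine. The members were all probe sets whose annotation names 1 symbol and that symbol is a subunit gene, which gave 14 of the 22215 probe sets on the array. FOS, FOSB, FOSL1 and JUNB had 1 probe set each, FOSL2 and JUND had 3 and JUN had 4, and 0 probe sets shared by several symbols included a subunit gene. A filter on low signal kept 12 of the 14 and at least 1 for each of the 7 genes. The 2 probe sets under the filter were 205409_at of FOSL2 and 213281_at of JUN.

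The cells were THLE-3, an established line derived from adult human liver epithelium and immortalised with the SV40 large T antigen. RNA was read on 20 Affymetrix human gene expression arrays. Cells in low leucine (0.1 mM) and in high leucine (2.0 mM) were taken at 0, 30, 60, 120 and 480 min, and each of these 10 groups holds 1 array from a first and 1 from a second experiment. The sources used here do not say what was done to the cells at 0 min, or whether the experiments were separate cultures, so p-values measure the spread between these arrays, which may be technical. All cells are of 1 immortalised line, and no other genotype or agent is named.

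Jun proteins pair with each other or with Fos proteins, whereas Fos proteins need a Jun partner to bind DNA. FOS, FOSB, JUN and JUNB are immediate early genes, whose messages rise within minutes of serum, growth factors or stress and decay quickly. FOSL1 and FOSL2 encode the Fos-related antigens Fra-1 and Fra-2, which usually follow later, and JUND is present in most resting cells. In liver, JUN is known for its part in hepatocyte proliferation during regeneration.

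Promoter sequences are shown for FOS, JUN and JUNB, whose messages moved together in time in the second experiment, and for JUND, which was higher at 480 min in both experiments. Each is the 250 bases before the RefSeq start site on GRCh38.p14, read 5′ to 3′ on the strand of the gene. Capitals mark matches to TGACG (the core of the cAMP response element) or to its reverse complement, to the full element TGACGTCA, and to TATAAA.
FOS promoter, chr14:75278578-75278827, plus strand: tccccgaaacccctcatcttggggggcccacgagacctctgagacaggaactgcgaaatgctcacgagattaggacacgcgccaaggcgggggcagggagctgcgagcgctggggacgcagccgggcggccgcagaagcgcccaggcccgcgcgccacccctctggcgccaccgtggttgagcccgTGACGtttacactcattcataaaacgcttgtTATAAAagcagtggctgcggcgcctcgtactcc
JUN promoter, chr1:58784048-58784297, minus strand: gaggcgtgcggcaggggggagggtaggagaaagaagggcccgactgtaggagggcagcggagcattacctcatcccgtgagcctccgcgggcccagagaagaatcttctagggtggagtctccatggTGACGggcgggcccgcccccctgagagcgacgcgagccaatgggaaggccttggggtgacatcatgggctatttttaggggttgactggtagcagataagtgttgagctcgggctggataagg
JUNB promoter, chr19:12791236-12791485, plus strand: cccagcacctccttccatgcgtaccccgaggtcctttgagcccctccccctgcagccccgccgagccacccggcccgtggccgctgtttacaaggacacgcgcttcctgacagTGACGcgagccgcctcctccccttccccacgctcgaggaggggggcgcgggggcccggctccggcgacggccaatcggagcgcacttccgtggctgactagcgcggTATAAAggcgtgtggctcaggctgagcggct
JUND promoter, chr19:18281623-18281872, minus strand: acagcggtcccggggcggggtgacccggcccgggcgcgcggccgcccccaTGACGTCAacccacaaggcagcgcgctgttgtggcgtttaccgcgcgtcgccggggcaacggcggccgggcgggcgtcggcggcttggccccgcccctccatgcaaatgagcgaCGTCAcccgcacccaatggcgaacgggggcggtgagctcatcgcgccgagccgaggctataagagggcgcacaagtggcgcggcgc
Of the 7 genes, 6 matched the RefSeq promoter table, and FOSL1 did not. TGACG stood on either strand in 6 of these 6, against 21.2% of 35116 promoters of the same length. In FOS it lay at -64 to -60 from the start site, in FOSB at -60 to -56, in JUN at -123 to -119 and in JUNB at -137 to -133. TGACGTCA, which holds TGACG on both strands, was in 1 of 6 (JUND, at -200 to -193) against 1.65%. TATAAA was in 3 of 6, FOS, FOSB and JUNB, against 10.7%. The AP-1 site TGANTCA was in 0 of 6 against 6.57%, and the serum response element core known as the CArG box in 0 of 6 against 1.16%, both searched on both strands. These patterns match exact letters only, so the related letters tgacatca in the JUN promoter were not counted. Bases farther upstream than this window were not searched. A lack of matches therefore does not show that such sites are absent. A match describes letters in this window and is not a measured binding site.

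The experiments differed on the array as a whole. The mean intensity of an array ran from 761.8 to 797.1 units in the first experiment and from 806.7 to 862.6 in the second. Across probe sets, 2 arrays correlated by at least 0.970 where the experiment was the same and by 0.911 to 0.939 where it was not. Of 8 hepatocyte marker genes 0 had a mean signal above the 90th percentile of all probe sets, and 5 passed the filter. These were CYP3A4 at percentile 89.97, just under that line, APOA1 at 67.1, TTR at 52.8, SERPINA1 at 48.7 and FGB at 45.3. The defining one, ALB (serum albumin), lay at percentile 9.92, under the filter, as did APOB (17.6) and TF (22.0). Of 7 biliary and epithelial markers 4 lay above the 90th percentile, all keratins. The others, SOX9 (percentile 24.3), EPCAM (10.8) and CDH1 (7.31), were under the filter. The summed intensity of the 7 was 11837 to 15169 units in the first and 20909 to 29055 in the second experiment. Of 7 stellate and fibroblast markers 4 lay above the 90th percentile, with sums of 18548 to 19443 and 18520 to 22328. In bulk RNA, fewer cells of a type and less RNA per cell cannot be told apart.

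In the second experiment FOS, JUN and JUNB rose within 30 min, FOSL1 followed by 60 min, and all 4 had fallen back from their peak by 480 min. In the first experiment, in the same cell line and at the same times, 0 probe sets of FOS, JUN, JUNB and FOSL1 were called. There FOS, JUN and FOSL1 stayed near their 0 min level, and JUNB was higher by 0.27 on a log2 scale at 30 min. Low and high leucine arrays both showed these courses. These changes were tested with limma, with 1 mean per experiment and time and a leucine term, so that the low and the high leucine array of an experiment and time served as its 2 arrays. Changes are on a log2 scale after a pseudocount of 165.2, which understates the change of weak probe sets. Each ± is a standard error, and a call is a Benjamini-Hochberg adjusted p under 0.05 over the 13329 probe sets kept. The comparisons of 30, 60, 120 and 480 min within an experiment share the 0 min arrays.

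**Figure D1:**
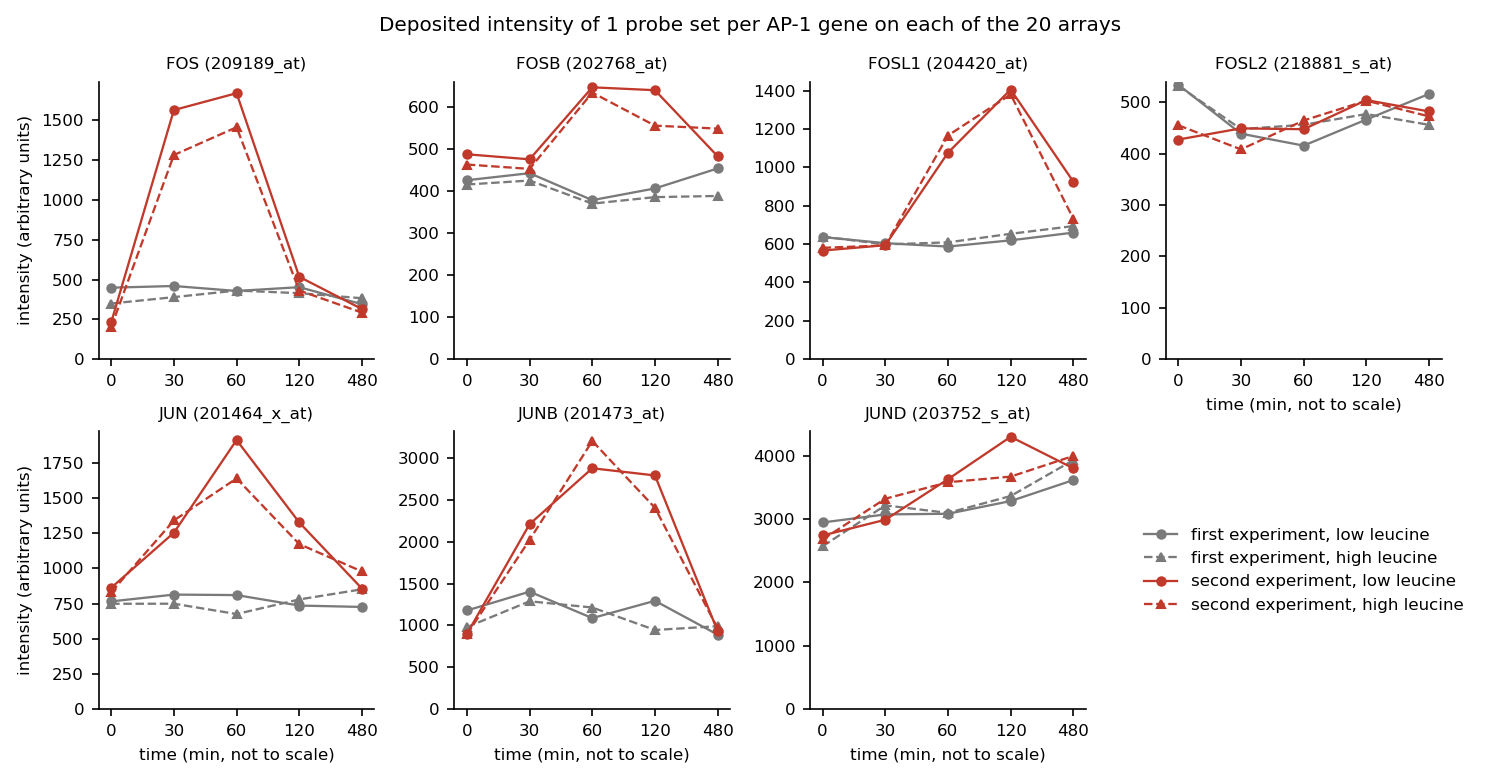
Deposited intensity (arbitrary units, linear axis from 0) of 1 probe set for each of the 7 genes against time in min (categories, not to scale). Each point is 1 array, with circles for low and triangles for high leucine, grey for the first and red for the second experiment. In the second experiment FOS reached 1282 to 1669 units at 30 and 60 min and FOSL1 1380 to 1405 at 120 min, while the first experiment stayed between 345.3 and 459.6 for FOS and between 587.1 and 693.8 for FOSL1.

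FOS, the founding Fos gene, gave the largest change of the members. In the second experiment its intensity in low and high leucine was 231.7 and 200.8 at 0 min, 1564 and 1282 at 30 min, 1669 and 1456 at 60 min, 517.3 and 431.3 at 120 min, and 315.1 and 292.6 at 480 min. The 4 arrays at 30 and 60 min were above every other array of the series for this probe set. In the first experiment the 10 arrays ran from 345.3 to 459.6 with a median of 421.5, and later times overlapped 0 min. Over 0 min, the second experiment reached 6.75-fold in low and 6.38-fold in high leucine at 30 min, and 7.20-fold and 7.25-fold at 60 min. On the log2 scale FOS rose by 2.06 ± 0.08 at 30 min (adjusted p = 2.41e-10), 2.16 ± 0.08 at 60 min (1.23e-10), 0.75 ± 0.08 at 120 min (2.11e-05) and 0.30 ± 0.08 at 480 min (0.0246). Steps between later times were added after the data were seen. The step from 30 to 60 min was 0.09 ± 0.08 and was not called, and that from 60 to 120 min was -1.41 ± 0.08 (adjusted p = 8.21e-08). The first experiment gave 0.08, 0.13, 0.13 and -0.07 at the 4 times, none of them called (adjusted p from 0.460 to 0.777). The change in the second minus that in the first experiment was 1.98 ± 0.11 at 30 min (adjusted p = 8.96e-08), 2.02 ± 0.11 at 60 min (6.7e-08) and 0.62 ± 0.11 at 120 min (0.0110). The 120 min difference lost its call with a larger pseudocount and without any one of the 4 low leucine arrays at 0 and 120 min (up to 0.0817), and the small 480 min rise in the second experiment with a larger pseudocount and without 3 arrays, both 0 min arrays and the high leucine 480 min array (up to 0.179). The 480 min difference of 0.37 ± 0.11 was not called (0.163).

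The 2 experiments did not start from the same FOS level. At 0 min the second experiment lay below the first by -0.62 ± 0.08 on the log2 scale (adjusted p = 1.32e-05), with 200.8 and 231.7 units against 349.6 and 449.1. This comparison was added after the data were seen, and at 0 min 26.6% of all probe sets were called different between experiments. At 480 min the second-experiment arrays were again below those of the first, at 292.6 and 315.1 against 345.3 and 382.7 units. At 0 min 4 of the 12 members were called, with JUN 201465_s_at higher in the second experiment by 0.25 ± 0.07 (adjusted p = 0.0125) and FOS and 2 FOSL2 probe sets lower. The JUN call was lost without either high leucine array at 0 min (up to 0.145).

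FOSB, which encodes a Fos protein induced by growth factors, changed less and later. In the second experiment its intensity in low and high leucine was 486.9 and 462.6 at 0 min, 474.9 and 452.2 at 30 min, 646.0 and 633.4 at 60 min, 639.1 and 554.9 at 120 min, and 482.2 and 547.9 at 480 min. The arrays at 60 and 120 min were above those at 0 and 30 min, and the first experiment ran from 369.7 to 453.3 with a median of 410.4. The second experiment gave -0.02 ± 0.06 at 30 min, a rise of 0.33 ± 0.06 at 60 min (adjusted p = 0.00883) and of 0.24 ± 0.06 at 120 min (0.0382), and 0.08 ± 0.06 at 480 min. The 120 min rise lost its call in 11 of 20 refits without 1 array (up to 0.403). The 60 min rise lost its call without any one of the 4 second-experiment arrays at 0 and 60 min (adjusted p up to 0.141). The difference between experiments at 60 min, 0.40 ± 0.09 (adjusted p = 0.0456), rested on single arrays: it was lost in 14 of 20 refits without 1 array, and also under median centring, without the filter and without the variance trend (adjusted p up to 0.216). Those 14 arrays were all the arrays at 0, 30 and 60 min and both first-experiment arrays at 120 min.

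FOSL1, whose product Fra-1 is a late partner of Jun and whose gene is itself a known AP-1 target, rose after FOS. Second-experiment intensities in low and high leucine were 566.3 and 580.6 at 0 min, 594.2 and 593.1 at 30 min, 1076 and 1166 at 60 min, 1405 and 1380 at 120 min, and 925.1 and 732.2 at 480 min. The 6 arrays from 60 min on were above the other 14 of the series, and the first experiment ran from 587.1 to 693.8 with a median of 628.1. The change in the second experiment was 0.03 ± 0.07 at 30 min, 0.77 ± 0.07 at 60 min (adjusted p = 8.44e-06), 1.06 ± 0.07 at 120 min (2.08e-07) and 0.41 ± 0.07 at 480 min (0.00218). Its step from 30 to 60 min was 0.74 ± 0.07 (6.85e-05), and 3 of the 12 members, FOSB, FOSL1 and JUN 201466_s_at, were called higher over that step against 0.668% of all probe sets. The FOSB and JUN calls were lost without any one of 4 and of 3 second-experiment arrays at 30 or 60 min (up to 0.140 and 0.128). Between 60 and 120 min 2 of the 12 fell, FOS and JUN 201466_s_at, against 0.06% of all probe sets called lower, and the JUN call was lost in 10 of 20 refits without 1 array (up to 0.552). The first experiment gave -0.07, -0.04, 0.02 and 0.07, none called. The change differed between experiments by 0.81 ± 0.10 at 60 min (adjusted p = 0.000578) and 1.04 ± 0.10 at 120 min (2.58e-05).

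FOSL2, which encodes Fra-2, was read by 3 probe sets that did not move alike. Probe set 218880_at rose in the second experiment by 0.26 ± 0.06 at 60 min (adjusted p = 0.0409), 0.34 ± 0.06 at 120 min (0.00450) and 0.22 ± 0.06 at 480 min (0.0315). Its intensity there went from 331.7 and 337.6 in low and high leucine at 0 min to 496.8 and 436.4 at 120 min. Probe set 218881_s_at gave 0.04 ± 0.05, 0.14 ± 0.05 and 0.08 ± 0.05 at these times and was not called, and 205409_at, under the filter, ran from 295.8 to 373.0 over all 20 arrays. For 218880_at the difference between experiments at 120 min was 0.42 ± 0.09 (adjusted p = 0.0389), and it was lost without the variance trend and in 12 of 20 refits without 1 array (up to 0.213), which covered all 4 arrays at 0 min, all 4 at 30 min and 4 of the arrays at 120 and 480 min. The 60 min rise of 218880_at was lost on values as deposited and in 12 of 20 such refits (up to 0.504). At 0 min 218880_at was lower in the second experiment than in the first by -0.34 ± 0.06 (adjusted p = 0.000634) and 218881_s_at by -0.27 ± 0.05 (0.00151). The rise of 218880_at at 120 min was lost without the second-experiment low leucine array at 0 or at 120 min (up to 0.109). Its rise at 480 min was lost without any one of the 4 second-experiment arrays at 0 and 480 min (up to 0.189).

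JUN, a partner of Fos proteins and a gene that AP-1 itself is known to induce, was read by 4 probe sets. For 201466_s_at the second experiment gave, in low and high leucine, 371.6 and 391.6 at 0 min, 713.7 and 616.0 at 30 min, 987.2 and 934.4 at 60 min, 723.0 and 655.3 at 120 min, and 404.8 and 414.1 at 480 min. All 10 of these arrays were above the first experiment, which ran from 282.6 to 327.4 with a median of 307.0. The probe set rose by 0.61 ± 0.07 at 30 min (adjusted p = 0.000342), 1.04 ± 0.07 at 60 min (1.79e-07) and 0.65 ± 0.07 at 120 min (3.01e-05), and gave 0.07 ± 0.07 at 480 min (0.573). Over 0 min the 60 min arrays were 2.66-fold in low and 2.39-fold in high leucine. Probe set 201464_x_at, the strongest of the 4, rose by 0.51 ± 0.09, 0.89 ± 0.09 and 0.45 ± 0.09 at 30, 60 and 120 min (adjusted p = 0.0350, 1.86e-05 and 0.00890), from 862.5 and 831.0 units at 0 min to 1913 and 1640 at 60 min. Probe set 201465_s_at moved less, with 0.13 ± 0.07, 0.28 ± 0.07 and 0.27 ± 0.07, the last pair called (0.0392 and 0.0341). The 120 min call of 201464_x_at was lost without the second-experiment low leucine array at 0 or at 120 min (up to 0.131). The 30 min call of 201464_x_at was lost under median centring and without any one of the 12 arrays at 0, 30 and 120 min (up to 0.434). The calls of 201465_s_at at 60 and 120 min were lost in 8 and 4 of the 20 refits without 1 array, among them each second-experiment 0 min array (up to 0.254 and 0.277).

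Under the filter, JUN probe set 213281_at had a range of 139.6 to 276.7 units and its 60 min arrays of the second experiment were its highest, at 276.7 and 259.3. In a fit with no filter it rose by 0.36 ± 0.06 at 30 min (adjusted p = 0.0113) and 0.47 ± 0.06 at 60 min (0.000124). In the first experiment the changes of the 3 JUN probe sets kept were at most 0.05 in size, none called. The change at 60 min differed between experiments by 1.01 ± 0.10 for 201466_s_at (adjusted p = 4.44e-05) and 0.89 ± 0.13 for 201464_x_at (0.00180), and by 0.28 ± 0.10 for 201465_s_at, which was not called (0.245).

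JUNB, a Jun protein that can oppose JUN in proliferating cells, rose as early as FOS and stayed up longer. In the second experiment the values in low and high leucine were 899.0 and 893.5 at 0 min, 2212 and 2024 at 30 min, 2881 and 3207 at 60 min, 2795 and 2408 at 120 min, and 931.5 and 965.9 at 480 min. The 6 arrays from 30 to 120 min were above all others, and those at 480 min were back in the range of the first experiment, 890.4 to 1405 with a median of 1134. The rise was 1.08 ± 0.10 at 30 min (adjusted p = 4.06e-05), 1.53 ± 0.10 at 60 min (1.67e-07) and 1.33 ± 0.10 at 120 min (4.45e-07), and the 480 min value was 0.04 ± 0.10 (0.870). Between 60 and 120 min JUNB changed by -0.20 ± 0.10, which was not called, whereas FOS fell. Between 120 and 480 min it fell by 1.29 ± 0.10 (adjusted p = 1.53e-05), and 5 of the 12 members fell over that step, from JUN, JUNB, FOSL1 and FOS, against 0.878% of all probe sets called lower. Of these, JUN 201464_x_at (adjusted p = 0.0450) was lost in 14 of 20 refits without 1 array (up to 0.345), and FOS (0.00637) without the second-experiment low leucine array at 120 min (0.0933). In the first experiment JUNB gave 0.27 ± 0.10 at 30 min, with both leucine levels higher than at 0 min, and this was not called (0.447). The change differed between experiments by 1.44 ± 0.14 at 60 min (5.01e-05) and 1.30 ± 0.14 at 120 min (8.7e-05), and by 0.81 ± 0.14 at 30 min, which was not called (0.0691).

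JUND, the Jun protein of resting cells, had a rise at 480 min that was called in both experiments for 1 of its 3 probe sets, and an earlier rise called in the second. Probe set 203752_s_at, at percentile 97.1 of mean signal, gave in the first experiment 2946 and 2571 units in low and high leucine at 0 min, 3073 and 3216 at 30 min, 3083 and 3097 at 60 min, 3284 and 3363 at 120 min, and 3615 and 3929 at 480 min. In the second it gave 2741 and 2677, 2989 and 3321, 3629 and 3581, 4298 and 3670, and 3801 and 3996. In both experiments the 480 min arrays were above both 0 min arrays. This probe set changed in the second experiment by 0.15 ± 0.06 at 30 min (not called) and rose by 0.29 ± 0.06 at 60 min (adjusted p = 0.0263) and 0.44 ± 0.06 at 120 min (0.000546), with a step of -0.03 from 120 to 480 min. Probe set 203751_x_at rose there by 0.37 ± 0.08 at 60 min (0.0174) and 0.35 ± 0.08 at 120 min (0.0149), and 214326_x_at by 0.30 ± 0.07 at 120 min (0.0185). At 30, 60 and 120 min 0 of the 3 were called in the first experiment, with 203752_s_at at 0.16, 0.15 and 0.22 and 203751_x_at at -0.12, 0.04 and 0.11. The change itself differed between experiments for 0 of the 3 at any time, with adjusted p from 0.220 to 0.725 at 60 and 120 min. The 60 min calls were lost without any one of the 4 second-experiment arrays at 0 and 60 min (up to 0.204 for 203752_s_at and 0.274 for 203751_x_at). The 120 min calls of 203751_x_at and 214326_x_at were lost without either second-experiment 0 min array or the low leucine 120 min array (up to 0.293 and 0.309). The rise at 480 min was 0.38 ± 0.06 in the first (adjusted p = 0.0201) and 0.42 ± 0.06 in the second experiment (0.000688), and the difference of these changes was 0.04 ± 0.09 (0.927, 95% interval -0.15 to 0.23). The first-experiment call was lost without the high leucine array at 0 min or that at 480 min (adjusted p up to 0.308). Probe sets 203751_x_at and 214326_x_at gave 0.28 ± 0.08 and 0.25 ± 0.07 at 480 min in the first experiment, not called (0.164 and 0.165). They rose by 0.33 ± 0.08 and 0.29 ± 0.07 in the second (0.0124 and 0.0136), calls lost without any one of 3 and of 4 second-experiment arrays at 0 and 480 min (up to 0.0753 and 0.0782).

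**Figure D2:**
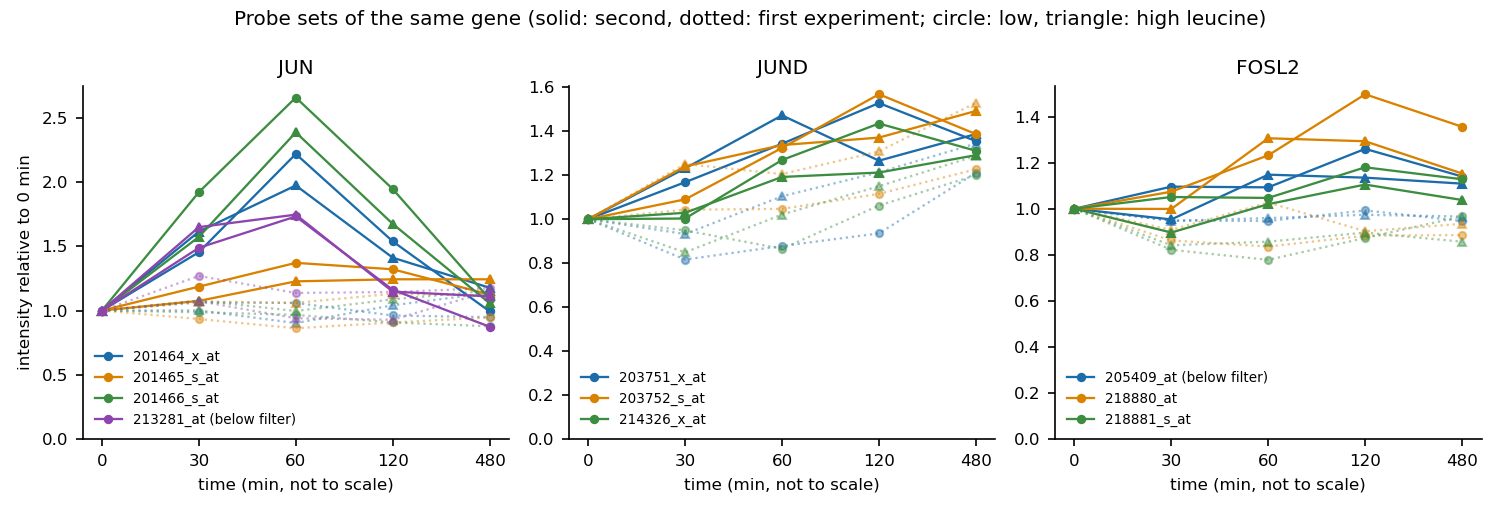
Intensity relative to the 0 min array of the same experiment and leucine level (linear axis from 0) for each probe set of JUN, JUND and FOSL2 against time (categories, not to scale). Colours are probe sets, solid lines the second and dotted lines the first experiment, circles low and triangles high leucine. At 60 min in the second experiment JUN 201466_s_at stood at 2.66 and 2.39, while all JUND values at 480 min lie above 1 in both experiments.

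Counted over the 12 probe sets kept, the second experiment had 4 called at 30 min, all higher, against 0.12% of all probe sets called in that comparison. At 60 min it had 10 (2.32%), at 120 min 11 (3.65%) and at 480 min 6 (10%), again all higher. The 60 min calls covered all 7 genes, and the probe sets not called were 218881_s_at of FOSL2 and 214326_x_at of JUND. The members' median change was 0.35 at 60 min and 0.40 at 120 min, beside -0.01 over all probe sets at both times. In the first experiment 0, 0, 0 and 1 of the 12 were called, against 0.195%, 0%, 0% and 0.3%. At an unadjusted p under 0.05 the first experiment had 3, 2, 1 and 3. The difference between experiments was called for 1, 6, 5 and 0 members at 30, 60, 120 and 480 min, all with the larger change in the second, against 0.045%, 0.72%, 0.653% and 0.593%. The 480 min difference had 4 members at an unadjusted p under 0.05. The second-experiment counts depended on single arrays: refits without 1 array gave 3 to 4, 5 to 10, 5 to 11 and 2 to 6 at the 4 times. The count of 5 at 60 min came without any one of the 4 arrays at 0 or 60 min of that experiment. At 120 min it came without its low leucine array at 0 or 120 min (7 without the high leucine one at 0 min), and at 480 min the count of 2 came without either 0 min array or the high leucine 480 min array. The difference at 120 min went to 3 without any one of the 4 low leucine arrays at 0 and 120 min. The calls of FOS, JUNB, FOSL1 and JUN 201466_s_at at 60 and 120 min were kept in every refit without 1 array.

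**Figure D3:**
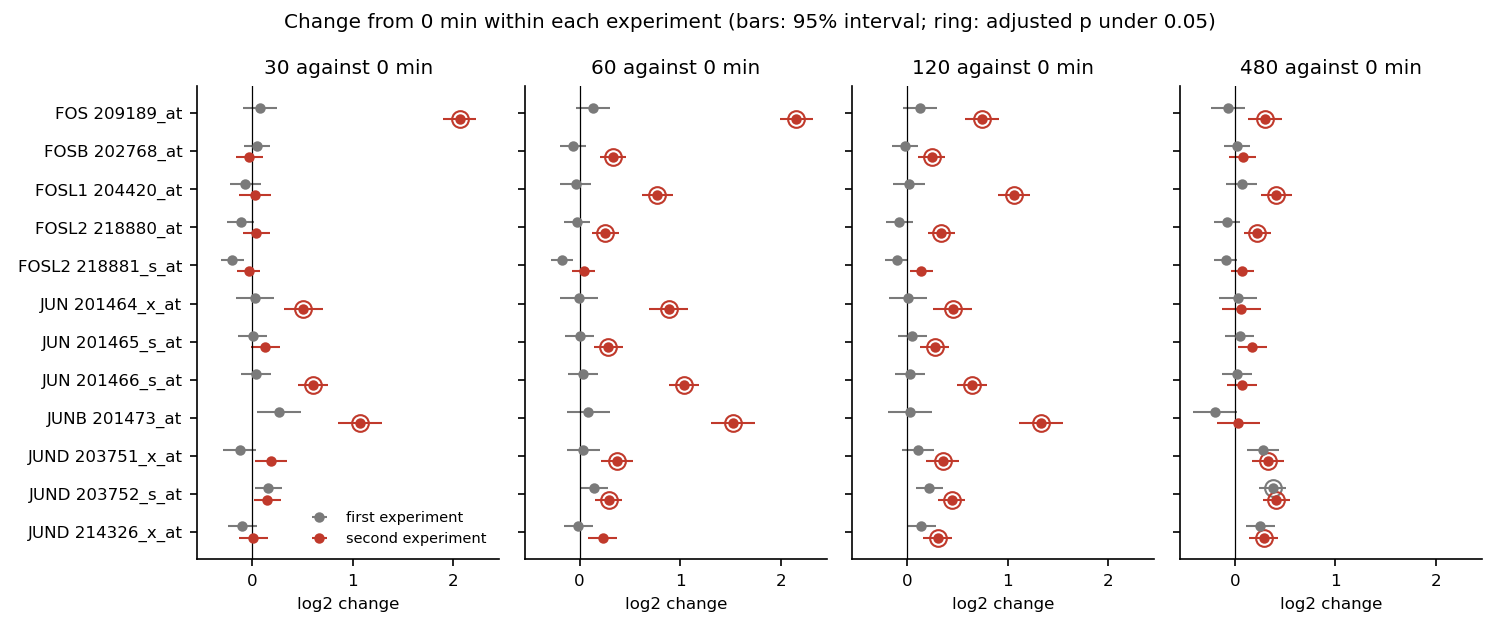
Log2 change from 0 min (x axis) of the 12 probe sets kept, in 1 panel for each later time, with grey for the first and red for the second experiment. Points are limma estimates over 2 arrays a time, bars 95% intervals, and rings mark an adjusted p under 0.05. Rings at 30 min sit on FOS, JUNB and 2 JUN probe sets of the second experiment, and at 480 min the JUND points of both experiments lie side by side.

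Averaged over all times, 9 of the 12 members differed between experiments, with 7 higher and 2 lower in the second, against 62% of all probe sets. JUN 201466_s_at was higher by 0.61 ± 0.10 (adjusted p = 7.63e-05), JUN 201465_s_at by 0.40 ± 0.04 (1.09e-07) and JUNB by 0.48 ± 0.15 (0.0108). FOS, which began lower and peaked higher in the second experiment, differed by 0.38 ± 0.22 and was not called (0.144). The 2 FOSL2 probe sets kept were lower by -0.11 ± 0.04 (0.0349) and -0.11 ± 0.03 (0.00514). That of 218880_at was lost in 8 of 20 refits without 1 array, all at 0 or 30 min, and both FOSL2 calls were lost on values as deposited (up to 0.572 and 0.446), where the median over all probe sets moved to 0.11. The FOSL1 difference of 0.28 ± 0.11 (0.0337) was lost in 10 of 20 refits without 1 array (up to 0.0893). The biliary and epithelial marker sums given above also differed between the experiments, and their part in these differences was not tested.

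Averaged over both experiments and both leucine levels, in the model of 10 group means, 0, 0, 0 and 1 of the 12 members were called at 30, 60, 120 and 480 min, against 0.0075%, 0.0075%, 0% and 1.21% of all probe sets. At an unadjusted p under 0.05 the counts were 2, 4, 3 and 3. The call was JUND 203752_s_at at 480 min, higher by 0.40 ± 0.06 (adjusted p = 0.0088), and it was lost without the second-experiment low leucine array at 0 min (0.0540). FOS at 60 min gave 1.14 ± 0.42 (0.483), JUNB 0.81 ± 0.34 (0.533) and FOSL1 at 120 min 0.54 ± 0.23 (0.678), means over 1 experiment with a large change and 1 without. With the experiment as a replicate block, 0, 1, 1 and 3 members were called, against 0.0075%, 2.54%, 0.893% and 11%, all of them JUND. Within high leucine alone 1 member was called at 480 min (1.72% of all probe sets) and 3 with the block (15.2%), again JUND. The unblocked call was lost without any one of the 4 high leucine arrays at 0 and 480 min (up to 0.100). Within low leucine 0 were called at any time in either fit (0% of all probe sets without and up to 0.233% with the block, 0, 1, 1 and 2 members at an unadjusted p under 0.05 without it).

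No difference between leucine levels was called for any of the 12 members. High against low leucine was compared as a mean over the 5 times, at each time, and as the change of the difference from 0 min, 10 comparisons in all. The limma fit called 0 members in each of them, and 0 had an unadjusted p under 0.05 (smallest 0.266). All probe sets gave 0.0075% for the mean, 0%, 0%, 0%, 0.0075% and 0.27% at 0, 30, 60, 120 and 480 min, and 0% for each change of the difference. With the replicate block it again called 0, and the smallest unadjusted p of a member was 0.197. In those fits the errors of FOS, JUN and JUNB hold the spread between the experiments' time courses, so a further fit, in which every experiment and time has its own mean, was added after the data were seen. It compares high with low leucine inside each experiment and time. That fit called 0 members too, with a smallest adjusted p of 0.113. Of all probe sets it called 0% for the mean, 2.51%, 0%, 0%, 0.135% and 6.5% at 0, 30, 60, 120 and 480 min, and 1.65%, 0%, 0.0075% and 7.27% for the change of the difference at 30, 60, 120 and 480 min.

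Under that added fit the mean leucine differences had narrow intervals. These measure the scatter between 10 pairs of arrays from 2 experiments, in which the times may not be independent. They do not bound the spread between cultures. The mean difference of FOS was -0.08 in the first and -0.16 in the second experiment. FOS gave -0.12 ± 0.04 (95% interval -0.19 to -0.05, unadjusted p = 0.00365, adjusted 0.883), and high leucine was below low in 9 of the 10 pairs of arrays. FOSB gave -0.03 (-0.09 to 0.03), also with high below low in 9 of the 10 pairs, though not the same 9. FOSL1 gave 0.01 (-0.06 to 0.08) and JUNB -0.05 (-0.15 to 0.05). JUN 201466_s_at gave -0.03 (-0.09 to 0.04) and JUND 203752_s_at 0.01 (-0.05 to 0.07). Over the 12 members the intervals ran from -0.19 to 0.13, beside time changes of up to 2.16 on the same scale in the second experiment. Single times with an unadjusted p under 0.05 in that fit were FOS at 0 and 30 min (-0.18 and -0.22), JUN 201464_x_at at 60 min (-0.22) and at 480 min (0.17), and JUNB at 120 min (-0.23), none called after adjustment (0.113 to 0.864). Changes of the difference from 0 min with such a p were JUN 201464_x_at at 60 min (-0.22) and FOS at 480 min (0.22). Neither was called (adjusted p = 0.292 and 0.167).

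**Figure D4:**
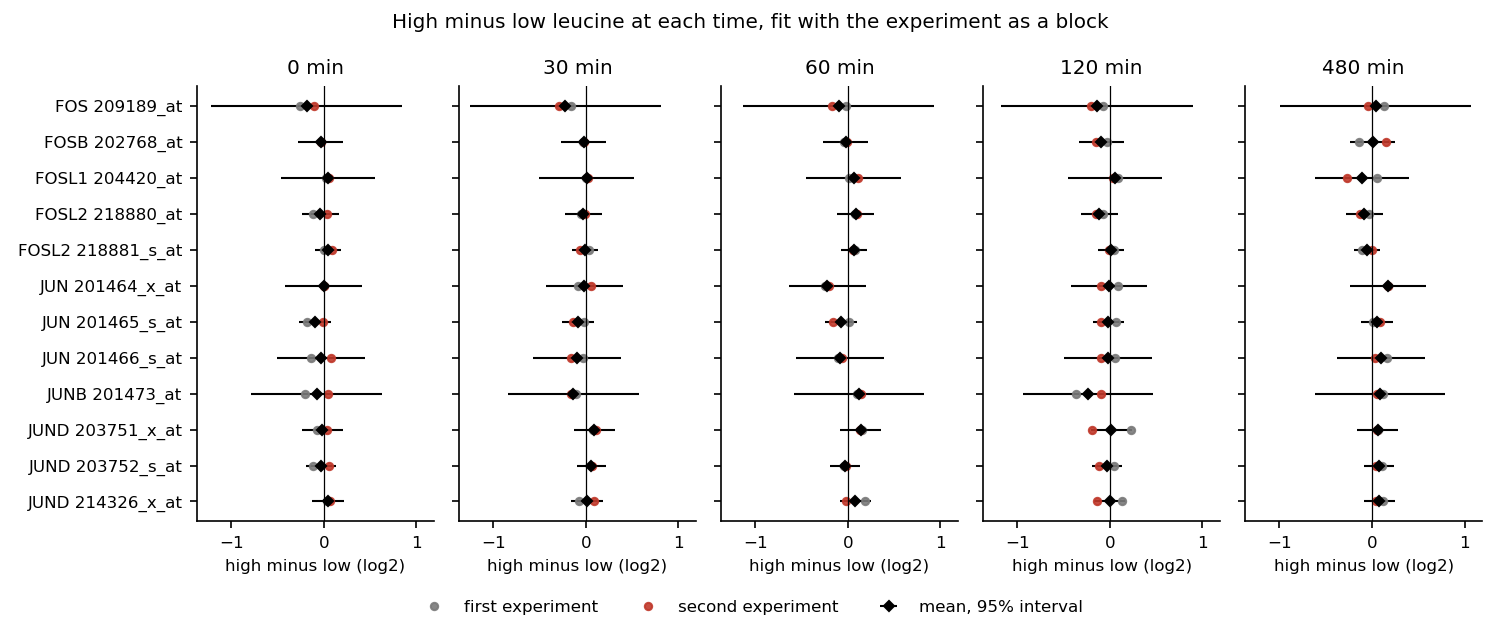
High minus low leucine (log2, x axis) for the 12 probe sets kept at each of the 5 times. Grey and red points are the first and second experiment, black diamonds the limma mean with its 95% interval from the fit with the experiment as a block. The points of single experiments lie between -0.37 and 0.23, and the wide FOS and JUNB intervals hold the spread between the experiments' time courses.

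Genes around AP-1 were read from lists of dimer partners, kinases upstream, factors at the FOS and JUN promoters, genes of turnover and AP-1 targets, with 1 probe set a gene. These lists were chosen with results of these data known. In the first experiment at 60 min 0 genes of the 5 lists were called, beside 0% of all genes. In the second experiment at 60 min the calls were 1 of 13 dimer partners, 1 of 15 kinases, 0 of 12 promoter factors, 3 of 17 turnover genes and 4 of 19 targets, beside 2.07% of all genes. All were higher except the kinase scaffold MAPK8IP3 at -0.29 ± 0.07 (adjusted p = 0.0394). At 120 min they were 1, 1, 0, 3 and 6, all higher, beside 3.29%.

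Among the targets, DUSP1, a phosphatase that switches off MAP kinases, went from 1981 and 1734 units in low and high leucine at 0 min to 6016 and 6114 at 60 min in the second experiment. It rose by 1.02 ± 0.11 at 30 min (adjusted p = 0.000135) and 1.54 ± 0.11 at 60 min (1.98e-07), and in the first experiment stayed between 2769 and 3683. LIF, a cytokine, rose by 0.73 ± 0.07 at 60 min (1.6e-05) and 0.92 ± 0.07 at 120 min (7.06e-07). TGFB1, a growth inhibitory cytokine, rose by 0.55 ± 0.07 at 60 min and 0.86 ± 0.07 at 480 min (0.000488 and 5.94e-06). CXCL8, a chemokine named outside the rule after its values were seen, rose by 0.87 ± 0.14 at 60 min (0.00287). The change differed between experiments at 60 min for 3 of the 19 targets, beside 0.556% of all genes: DUSP1 by 1.41 ± 0.15 (adjusted p = 0.000104), LIF by 0.58 ± 0.10 (0.0115) and TGFB1 by 0.56 ± 0.11 (0.0171). At 480 min 8 of 19 targets were higher in the second experiment than at 0 min, beside 9.71% of all genes called, and they included TIMP1 (0.46 ± 0.06, adjusted p = 0.000296), an inhibitor of matrix metalloproteinases, and PLAUR (0.42 ± 0.06, 0.000520), the urokinase receptor. In that comparison KRT8, KRT19 and KRT7 of the 4 epithelial markers kept also rose, by 0.34 to 0.52, and the part of such genes in the target count was not tested.

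The turnover genes called were the ZFP36 family, RNA binding proteins that speed the decay of AU-rich messages such as that of FOS. At 60 min in the second experiment ZFP36L1 rose by 0.91 ± 0.09, ZFP36 by 0.80 ± 0.09 and ZFP36L2 by 0.44 ± 0.07 (adjusted p = 9.45e-06, 2.98e-05 and 0.00250). ZFP36 moved from 497.2 and 384.5 units at 0 min to 907.4 and 886.2 at 60 min, and ran from 582.5 to 672.2 over the 10 arrays of the first experiment. The change at 60 min differed between experiments for ZFP36L1 (0.84 ± 0.12, adjusted p = 0.00192) and ZFP36 (0.79 ± 0.12, 0.00273). Of the dimer partners, ATF3, a stress-induced bZIP protein, rose at 60 min by 0.64 ± 0.15 (adjusted p = 0.0379) and MAFF, a small Maf protein, at 120 min by 0.34 ± 0.07 (0.0114). The difference between experiments was called for neither, with 0.56 ± 0.21 for ATF3 at 60 min (0.324) and 0.39 ± 0.10 for MAFF at 120 min (0.114). Refits without 1 array are not given for the rises of list genes. For leucine at 480 min, 2 of 13 dimer partners were lower in high leucine, ATF4 by -1.05 ± 0.13 and CEBPG by -0.89 ± 0.12 (both adjusted p = 0.0162), beside 0.169% of all genes called lower. With the replicate block 4 of the 13 were lower, beside 1.7% of all genes. Without the low or the high leucine 480 min array of the second experiment the unblocked fit called 0 probe sets of the whole array in this comparison, so both calls were lost.

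**Figure D5:**
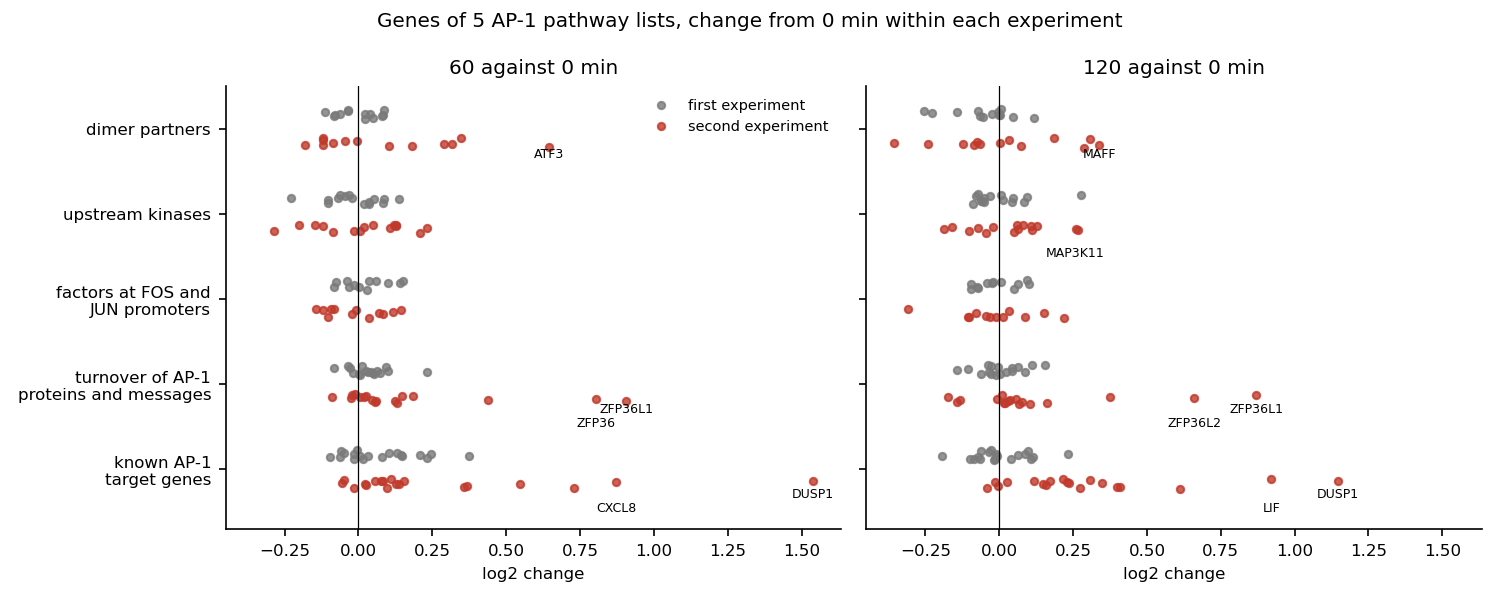
Log2 change from 0 min at 60 and at 120 min (x axis) of the genes of 5 lists around AP-1, 1 point a gene, with grey for the first and red for the second experiment; vertical scatter within a list has no meaning. Up to 2 genes a list with the largest called rise are named below their points. DUSP1 lies farthest to the right at both times, with 1.54 and 1.15 in the second experiment.

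Genes whose pattern was most like FOS, JUN and JUNB were ranked among 8279 others by Pearson correlation over the 20 arrays after the mean of each experiment was subtracted. For FOS they were IER2 (0.88), EGR1 (0.87), JUN (0.86), WFS1 (0.80) and ZFP36 (0.80). For JUN they were IER2 (0.93), DUSP1 (0.90), ZFP36 (0.89), IER3 (0.87) and RHOB (0.86), and for JUNB IER3 (0.92), EGR1 (0.92), IER2 (0.91), RHOB (0.86) and JUN (0.85). JUNB came 7th for FOS (0.79) and FOS 7th for JUN (0.86), whereas JUND lay near 0 with FOS (0.02). FOSL1 gave 0.12 with FOS and 0.55 with JUNB, and FOSL2 gave -0.24 with FOS. Each gene was read by its probe set of highest mean. For FOSL2 this was 218881_s_at and not 218880_at, which rose in the second experiment. Within the 10 arrays of the second experiment FOS and JUN gave 0.89 and FOS and JUNB 0.80, and within the first experiment 0.14 and 0.68. Other pairs named above had the opposite sign within the first experiment, with RHOB and JUNB at -0.61, JUN and JUNB at -0.11, ZFP36 and FOS at -0.39, FOSL1 and FOS at -0.46 and FOSL1 and JUNB at -0.85. Arrays of 1 time and experiment share their time course, so the correlations are descriptions.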

How the data were processed

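Per the values themselves, the table as deposited by the authors holds an intensity on a linear scale for each of 22215 probe sets. The authors' summary and scaling steps are not given in the sources used here, so their effect on the values is unknown. The highest value was 26173, 16 values were exactly 0, and array medians lay between 433.2 and 492.9. Arrays have no read depth, and their number limits the precision. Values were turned to log2 after 165.2 was added (the arrays' 10th percentiles have this median) and then quantile normalised. A filter kept 13329 probe sets (8280 genes) with a mean no lower than the 40th percentile. The platform annotation gave 1 symbol to 19065 probe sets, several to 1043 and none to 2107, and only the first kind was named.

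Tests were two-sided limma 3.58.1 fits in R 4.3.3 over all 20 arrays, with moderated variances, an intensity trend and Benjamini-Hochberg adjustment. One model had 10 group means (10 residual degrees of freedom). The other had a mean for every time of each experiment and a leucine term (9). The labels number each array of a group by its experiment, and deviations of equally numbered arrays correlated by 0.808 to 0.928 in all 45 pairs of groups, so the experiment was also tried as a replicate block (9). Steps between later times, the 0 min comparison and the fit of leucine pairs were added after the data were seen. Named genes were all members whatever their p, up to 3 genes a list and comparison by p, and the 5 nearest by correlation. Members and lists were chosen with earlier results of these data known. The alternatives used another pseudocount (4 times up or down), the deposited values without quantile normalisation, centring on medians, another filter (none, or the 60th percentile), no trend, the block, or left out each array in turn. On simulated data of 13329 probe sets, the difference between experiments at 60 min was tested. The test called 63 of 100 planted differences of 0.5 and 97 of 100 of 1, beside 11 false calls. The simulation drew independent errors for each array and held no change over time except those planted. Its shares may therefore not carry over to these data.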

Additional observations from a re-analysis of the deposited data

Results flagged for a closer look

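Changes from 0 min that differed between the experiments by the test of the difference itself (limma, adjusted p under 0.05) were found for 5 of the 7 genes at 60 min. The change in the second minus that in the first experiment, on the log2 scale, was 2.02 for FOS, 1.44 for JUNB, 1.01 for JUN 201466_s_at, 0.89 for JUN 201464_x_at, 0.81 for FOSL1 and 0.40 for FOSB. At 30 min FOS alone of the 12 probe sets passed, with 1.98. At 120 min the values were 1.30 for JUNB, 1.04 for FOSL1, 0.62 for JUN 201466_s_at, 0.62 for FOS and 0.42 for FOSL2 218880_at. The FOS values at 30 and 60 min and the JUN, JUNB and FOSL1 values at 60 min kept their call in every alternative that tested them, as did JUNB, FOSL1 and JUN 201466_s_at at 120 min, while those of FOSB, FOSL2 and FOS at 120 min did not. Averaged over all times, 62% of all probe sets differed between the 2 experiments, as did the summed biliary and epithelial marker signal. The part of these in the changes was not tested.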

How the results depend on the processing

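Counts below are members called of 12. With the experiment as a replicate block the count for time against 0 min went to 1 at 60 min, 1 at 120 min and 3 at 480 min, and to 3 at 480 min in high leucine, and the block changed no other call of a member, leucine comparisons included. A pseudocount 4 times larger and values as deposited each gave 2 in place of 1 for the difference between experiments at 30 min. The filter at the 60th percentile left 5 members to test, and of these 4 differed between experiments, 2, 5, 5 and 2 were called in the second experiment at 30, 60, 120 and 480 min, and 0, 3 and 2 for the difference at 30, 60 and 120 min. Leaving out 1 array in turn gave 0 to 1 for time at 480 min, for 480 min in high leucine and for the first experiment at 480 min. It gave 5 to 10, 5 to 11 and 2 to 6 in the second experiment at 60, 120 and 480 min, and 1 to 3, 3 to 5 and 0 to 1 for the difference at 30, 120 and 480 min. No result changed direction after being called. With 2 arrays a group, the unblocked fit called 48 of 100 simulated leucine changes of 0.5 at 480 min, so changes of that size could be missed. The simulation held no time course that differed between experiments. In that comparison the members' standard errors ran from 0.08 for JUND 203752_s_at to 0.60 for FOS, with 0.48 for JUNB. The simulated share therefore does not carry over to FOS, JUN and JUNB, in which a change of 0.5 would be harder to call.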

Other observations

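CXCL8, a chemokine gene with known AP-1 control, had a higher intensity in the first experiment (1037 to 1960 units over 10 arrays) than in the second (250.3 to 689.7), while its called rise from 0 min was in the second. ATF3 was higher in the second experiment at 0 min (852.5 and 923.9 units in low and high leucine, against 519.3 and 534.8), and at 480 min in the second experiment it stood at 813.1 in low and 456.3 in high leucine. These genes were picked after their values were seen and no test is given for these levels.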
